A study of Mus musculus with 16 samples.

Results

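Expression of 8 genes of nerve fibres and Schwann cells was followed through the developing mouse first molar: the axonal genes Gap43, Tubb3, Stmn2, Nefl and Prph, and the glial genes Cdh19, Mbp and Erbb3. These 8 of the 23337 genes in the count tables were listed by name, and all 8 passed the filter on low counts that left 16287 genes. RNA was measured in 16 libraries of molar germs (tooth primordia) of wild-type CD1 embryos, CD1 being an outbred mouse strain. There were 8 libraries labelled upper first molar and 8 labelled lower first molar, with 1 of each at the embryonic days ED14.5, ED15.0, ED15.5, ED16.0, ED16.5, ED17.0, ED17.5 and ED18.0. Per the labels, left and right germs of 1 male embryo were pooled, and both libraries of a stage share that embryo. No embryo carried an allele or received an agent that the labels name, so there was no manipulated group. Levels are given as CPM, counts scaled to a common total of gene counts per library.

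The first molar is reached by axons of the trigeminal ganglion, which arrive at the tooth germ before they enter the dental papilla. The axons are accompanied by Schwann cell precursors, neural crest derivatives that depend on neuregulin from the axon, received by the ErbB2 and ErbB3 receptors, and that later become myelinating and non-myelinating Schwann cells. Neuron cell bodies stay in the ganglion, so most neuronal messenger RNA lies outside a dissected germ, and several genes of axons and glia are also used by epithelium and mesenchyme.

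The libraries alternated between stages and went against the label male. Gene counts totalled 33146758 to 44565205 per library. Pou3f3, a transcription factor gene known from the upper jaw of mouse embryos, lay at 109.5 to 131.5 CPM (labelled upper) and 60.1 to 86.2 CPM (labelled lower) at the whole-day stages (ED15.0, ED16.0, ED17.0 and ED18.0). At the half-day stages (ED14.5, ED15.5, ED16.5 and ED17.5) it lay at 6.45 to 10.1 CPM (labelled upper) and 4.45 to 5.46 CPM (labelled lower). It thus separated the stages more widely than the tooth labels, although the label upper was the higher in 8 of 8 individuals. The homeobox gene Nkx2-3 alternated in the opposite direction, with at most 0.112 CPM in the 8 whole-day libraries and at least 19.2 CPM in the 8 half-day libraries. Xist, the RNA of the inactive X chromosome, was at 431.8 and 542.3 CPM in the libraries labelled lower of individuals 1 and 2 and at 1499 to 1928 CPM in the other 14, while the Y-linked Kdm5d, Uty and Eif2s3y had no count in any library, all labelled male, and the Y-linked Ddx3y had 2 counts in the library labelled lower of individual 2 and none elsewhere. The groups are therefore called by their labels, and the whole-day stages are set against the half-day stages as a second comparison. With 1 library per tooth label and stage, every test measures a difference against the scatter of libraries about a smooth curve of stage. All libraries labelled upper were on 1 flow cell and all those labelled lower on another, per the deposited file names, so that flow cell and tooth label cannot be told apart. In whole germs, fewer cells of a type and less RNA per cell cannot be told apart either.

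Promoter sequence was at hand for 2 of the 8 genes, 1 that differed between tooth labels (Tubb3) and 1 that differed between stage sets (Prph). The lines below give RefSeq sequence of GRCm38.p6, the plus strand of both genes, from 250 bases before to 50 bases after the annotated start, at chr8:123411303-123411602 for Tubb3 and chr15:99054924-99055223 for Prph. Capitals mark matches to the letters searched on both strands: ACAAAG and ACAATG, bound by Sox factors; CAGCTG, an E-box; and CAGCACC and GGACAG, the parts of the silencer element by which REST holds neuronal genes down outside neurons.
Tubb3: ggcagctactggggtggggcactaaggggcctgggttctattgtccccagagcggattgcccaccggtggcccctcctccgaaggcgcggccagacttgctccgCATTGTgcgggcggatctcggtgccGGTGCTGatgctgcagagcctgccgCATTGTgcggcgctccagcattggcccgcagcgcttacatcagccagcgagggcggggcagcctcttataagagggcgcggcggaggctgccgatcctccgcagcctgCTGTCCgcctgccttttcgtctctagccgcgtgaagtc
Prph: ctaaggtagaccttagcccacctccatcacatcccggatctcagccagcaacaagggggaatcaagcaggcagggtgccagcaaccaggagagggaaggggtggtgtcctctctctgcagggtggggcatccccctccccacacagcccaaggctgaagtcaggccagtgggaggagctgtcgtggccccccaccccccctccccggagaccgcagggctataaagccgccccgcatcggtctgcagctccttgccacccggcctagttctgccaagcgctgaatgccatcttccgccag
Tubb3 held 4 matches, all on the reverse strand: ACAATG with its leftmost letter 146 and 96 bases before the start, CAGCACC 121 bases before it, and GGACAG at base 13 of the transcript, none overlapping another. Prph held none of the letters searched. Of 32851 promoters of the same length, 12.6% held ACAATG, 7.14% CAGCACC, 22.2% GGACAG, 18.7% ACAAAG and 16.3% CAGCTG. The start used for Prph lies inside the gene span given below. These matches describe letters and not occupied sites.

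**Figure D1:**
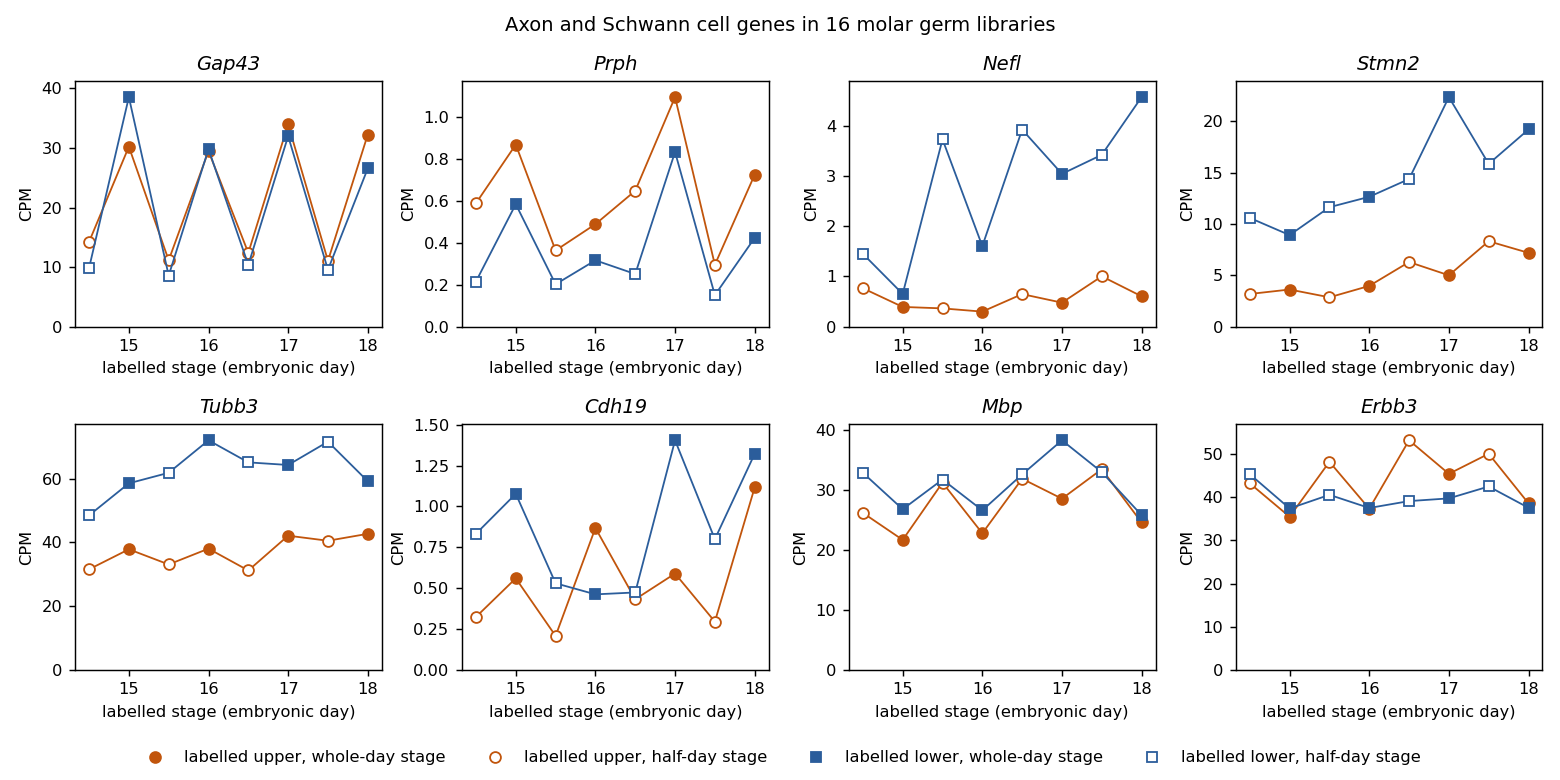
CPM of each of the 8 genes (y axis, from 0, own scale per panel) against labelled embryonic day (x axis), with 1 point per library; circles are libraries labelled upper, squares those labelled lower, filled points whole-day stages and open points half-day stages. Gap43 alternates in both labels between 26.6 to 38.6 CPM at whole-day stages and 8.57 to 14.2 CPM at half-day stages, while Tubb3 and Stmn2 lie lower in all libraries labelled upper than in any labelled lower.

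Between the tooth labels, 3 of the 8 genes differed, all axonal and all lower in the libraries labelled upper: Tubb3, Stmn2 and Nefl. Over all genes tested, 36.2% passed this test, 18.1% in each direction, so 3 of 8 is close to the share of all genes. The 8 genes had a median log2 difference of -0.40, against 0.01 for all genes. The ranges of the 2 labels did not overlap for Tubb3 and Stmn2, 2 of 8 genes, against 6.4% of all genes tested.

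Tubb3 (chr8:123411553-123422015) encodes a beta-tubulin of neurons. Its level was 31.2 CPM at the lowest, 37.9 at the median and 42.7 at the highest in libraries labelled upper, against 48.5, 63.1 and 72.0 CPM in libraries labelled lower. Every library labelled upper was below every library labelled lower, and the label upper was lower in 8 of 8 individuals. The means were 37.1 ± 4.65 and 62.6 ± 7.63 CPM (SD, n = 8 each), a log2 difference of -0.75 ± 0.07 (SE). Its adjusted p was 2.85e-06 by the quasi-likelihood F test of edgeR, with p-values adjusted over all genes by Benjamini and Hochberg, as for every adjusted p here. The difference was -0.67 within the whole-day stages and -0.85 within the half-day stages, with edgeR adjusted p = 0.000325 and 0.000151.

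Stmn2 (chr3:8509527-8561604) encodes stathmin-2, a tubulin-binding protein of growing axons. From the lowest to the highest stage, libraries labelled upper had 3.17, 3.61, 2.85, 3.96, 6.28, 4.99, 8.31 and 7.18 CPM. The libraries labelled lower had 10.6, 8.91, 11.6, 12.6, 14.4, 22.3, 15.8 and 19.2 CPM at the same stages. All libraries labelled upper were below all those labelled lower, and in both labels the 4 libraries from ED16.5 on were above the 4 earlier ones. The log2 difference between labels was -1.54 ± 0.11 (2.91-fold lower in labelled upper, edgeR adjusted p = 3.89e-07), rank 56 by p of 16287 genes. It was -1.67 within whole-day and -1.43 within half-day stages (edgeR adjusted p = 0.000123 and 0.000949).

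Nefl (chr14:68083863-68089095), the light neurofilament chain of mature axons, had the widest difference of the 8. The libraries labelled upper had 0.764, 0.392, 0.363, 0.298, 0.647, 0.477, 1.002 and 0.603 CPM from ED14.5 to ED18.0. Those labelled lower had 1.45, 0.651, 3.73, 1.60, 3.93, 3.04, 3.42 and 4.57 CPM. The ranges overlapped through 1 library, labelled lower at ED15.0, which lay below 2 of those labelled upper, and the label upper was lower in 8 of 8 individuals. The log2 difference was -2.25 ± 0.34 (4.75-fold lower, edgeR adjusted p = 0.000165). These are low counts: the lowest library held 11, with an exact 95% Poisson interval of 5.49 to 19.7 that covers counting error only.

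The other axonal genes gave no call between labels. Prph (chr15:99053579-99058978) encodes peripherin, an intermediate filament of peripheral neurons, and had 0.295, 0.618 and 1.09 CPM (lowest, median, highest) in libraries labelled upper, against 0.150, 0.283 and 0.832 CPM in those labelled lower. The ranges overlapped, yet the label upper was higher in 8 of 8 individuals, the opposite direction to Nefl. The log2 difference was 0.76 ± 0.36 (edgeR adjusted p = 0.117). With the individual as a block, which the labels' statement of shared embryos allows, it was 0.83 with edgeR adjusted p = 0.00401. As there was 1 individual per stage, the block is also a term for each stage, whether or not embryos were shared. It thus takes up the difference between stage sets. The pairing of embryos itself rests on the labels alone. For individuals 1 and 2, Xist was at 1664 and 1739 CPM in labelled upper and at 431.8 and 542.3 CPM in labelled lower. Such unlike values go against the label of 1 shared embryo. With the stage set as a covariate Prph had the same log2 difference of 0.83 (edgeR adjusted p = 0.0104). Gap43, described further on, had a log2 difference of 0.09 ± 0.40 between labels (edgeR adjusted p = 0.891). That fit held no term for the stage set, so the alternation of Gap43 between sets is part of its SE. At half-day stages all libraries labelled upper (11.05 to 14.2 CPM) lay above all those labelled lower (8.57 to 10.4 CPM). At whole-day stages the labels overlapped. Over the alternatives run the label difference of Gap43 ran from -0.01 to 0.35 and was not called.

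Of the glial genes none was called between labels. Cdh19 (chr1:110888002-110977601), a cadherin of Schwann cell precursors, had 0.207, 0.496 and 1.12 CPM (lowest, median, highest) in libraries labelled upper, against 0.462, 0.816 and 1.40 CPM in those labelled lower. It was lower in the label upper in 7 of 8 individuals, with a log2 difference of -0.65 ± 0.33 (edgeR adjusted p = 0.139), and -0.67 with the stage set as a covariate (edgeR adjusted p = 0.0350). Mbp, the myelin basic protein gene on chromosome 18, had 21.7, 27.3 and 33.4 CPM in libraries labelled upper, against 25.8, 32.1 and 38.3 CPM in those labelled lower. Its difference of -0.16 ± 0.09 (edgeR adjusted p = 0.173) was -0.17 and called with the individual as a block (edgeR adjusted p = 0.0342). As for Prph, that block is also a term for each stage, and the pairing of embryos in it rests on the labels alone. Mbp also makes golli transcripts outside myelinating cells, which counts per gene do not separate. Erbb3 (chr10:128567523-128589635), the neuregulin receptor of Schwann cells and also of epithelia, had 35.5, 44.3 and 53.2 CPM in libraries labelled upper, against 37.4, 39.4 and 45.4 CPM in those labelled lower, a log2 difference of 0.14 ± 0.08 (edgeR adjusted p = 0.172).

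Between the stage sets, 6 of the 8 genes differed: Gap43, Prph and Cdh19 were higher at whole-day stages, and Nefl, Mbp and Erbb3 were lower. Over all genes 15.53% passed this test, 8.52% higher and 7.01% lower at whole-day stages. Gap43 was the 1 gene of the 8 whose ranges did not overlap between sets, against 0.927% of all genes tested. Each of the 5 calls other than Gap43 was lost without at least 2 of the 8 individuals, left out 1 at a time, and all 5 were lost without individuals 1 and 2 together, an alternative chosen after seeing the data because of their Xist values.

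Gap43 (chr16:42248552-42340651) encodes a protein of axonal growth cones that Schwann cell precursors also make. In libraries labelled upper it had 30.2, 29.5, 34.0 and 32.3 CPM at ED15.0, ED16.0, ED17.0 and ED18.0, against 14.2, 11.1, 12.4 and 11.05 CPM at ED14.5, ED15.5, ED16.5 and ED17.5. In libraries labelled lower it had 38.6, 29.8, 32.0 and 26.6 CPM at the whole-day stages, against 9.83, 8.57, 10.4 and 9.54 CPM at the half-day stages. The sets were apart in both labels, and in each of the 7 pairs of neighbouring stages the whole-day library was the higher, in both labels. The means were 31.6 ± 3.58 and 10.9 ± 1.77 CPM (SD, n = 8 each), a log2 difference of 1.61 ± 0.09 (3.04-fold, edgeR adjusted p = 1.59e-07), rank 6 by p of 16287 genes. Within the 4 sequencing lanes, each with 2 libraries of each set, whole-day means were 2.35, 2.83, 3.72 and 2.94 times the half-day means. The call of Gap43 held without each individual in turn (edgeR adjusted p = 4.13e-07 to 4.62e-05) and without individuals 1 and 2 together (1.54, edgeR adjusted p = 8.53e-06).

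Within a label the Gap43 difference was 1.38 ± 0.09 in labelled upper (edgeR adjusted p = 0.000109) and 1.75 ± 0.11 in labelled lower (edgeR adjusted p = 4.67e-05). The test of whether the set difference itself differed between labels called none of the 8 genes, against 0.841% of all genes (0.559% with a more positive difference in labelled upper, 0.282% with a more negative one). For Gap43 that difference was -0.37 ± 0.14 (edgeR adjusted p = 0.316).

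Prph, in contrast to Nefl, moved in the direction of Gap43. It had 0.867, 0.488, 1.09 and 0.724 CPM at the whole-day stages labelled upper, against 0.588, 0.363, 0.647 and 0.295 CPM at the half-day stages labelled upper. In libraries labelled lower it had 0.583, 0.316, 0.832 and 0.423 CPM at whole-day stages, against 0.215, 0.202, 0.251 and 0.150 CPM at half-day stages. The sets were apart in labelled lower and overlapped in labelled upper. The log2 difference was 1.17 ± 0.25 (edgeR adjusted p = 0.00626), lost without individual 6 or 7, and within the 4 lanes whole-day means were 1.43, 1.93, 2.16 and 3.13 times the half-day means. The lowest library held 6 counts of Prph (exact 95% Poisson interval 2.20 to 13.1). Nefl had a log2 difference of -0.85 ± 0.26 between sets (edgeR adjusted p = 0.0383), lost without any 1 of 7 individuals, with the individual as a random block (limma, -0.66, adjusted p = 0.0665) and with the lane in place of label and stage (-0.58, edgeR adjusted p = 0.157). The Nefl call was also lost with lane and linear stage. Within lanes its whole-day means were 0.612, 0.655, 0.435 and 1.04 times the half-day means.

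Tubb3 and Stmn2, which differed between labels, gave no call between stage sets. Their log2 differences were 0.09 ± 0.07 for Tubb3 and -0.01 ± 0.12 for Stmn2 (edgeR adjusted p = 0.435 and 0.970). The intervals of plus and minus 2 SE ran from -0.05 to 0.23 for Tubb3 and from -0.24 to 0.22 for Stmn2.

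Among the glial genes, Cdh19 had 0.560, 0.868, 0.589 and 1.12 CPM at whole-day stages labelled upper, against 0.323, 0.207, 0.432 and 0.295 CPM at half-day stages. In libraries labelled lower it had 1.08, 0.462, 1.40 and 1.32 CPM at whole-day stages, against 0.833, 0.530, 0.473 and 0.800 CPM at half-day stages. The sets were apart in labelled upper and overlapped in labelled lower, where the ED16.0 library was the lowest of all 8. The log2 difference was 0.93 ± 0.26 (edgeR adjusted p = 0.0253), and it was lost without any 1 of 7 individuals. Within lanes the whole-day means were 2.69, 2.35, 1.13 and 2.14 times the half-day means. Counts were low, with 8 in the lowest library (exact 95% Poisson interval 3.45 to 15.8).

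Mbp and Erbb3 moved the other way by less. Mbp averaged 26.9 ± 5.12 CPM at whole-day and 31.6 ± 2.32 CPM at half-day stages (SD, n = 8 each), a log2 difference of -0.24 ± 0.07 (edgeR adjusted p = 0.0267, lost without 5 of 8 individuals in turn). In libraries labelled lower 3 whole-day values, 25.8 to 26.8 CPM, lay below all half-day values, and the ED17.0 library at 38.3 CPM lay above them all. Erbb3 averaged 38.6 ± 3.001 CPM at whole-day and 45.3 ± 4.88 CPM at half-day stages, a log2 difference of -0.23 ± 0.05 (edgeR adjusted p = 0.0120, lost without 4 of 8 individuals in turn). Within lanes the whole-day means were 0.774, 0.813, 0.826 and 0.977 times the half-day means for Mbp, and 0.796, 0.813, 0.872 and 0.947 times for Erbb3. With lane and linear stage in the fit, 1 of the 3 glial genes was called lower, so the call of either Mbp or Erbb3 was lost. Over the steps between neighbouring stages, the whole-day library labelled upper was the lower one in 7 of 7 for both Mbp and Erbb3. Among libraries labelled lower this held in 5 of 7 steps for Mbp and 6 of 7 for Erbb3.

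Inside the label upper 4 of the 8 genes were called between stage sets, Gap43 and Cdh19 higher and Mbp and Erbb3 lower, against 8.47% of all genes (5.16% higher, 3.31% lower). Their log2 differences other than that of Gap43 were 1.20 for Cdh19, -0.38 for Mbp and -0.35 for Erbb3 (edgeR adjusted p = 0.0483, 0.0161 and 0.0199). The calls were lost without any 1 of 7 individuals for Cdh19, 2 for Mbp and 4 for Erbb3, and that of Cdh19 also with DESeq2 (1.21, adjusted p = 0.0647). Inside the label lower Gap43 was the 1 gene of the 8 called, against 6.65% of all genes (3.71% higher, 2.93% lower), and Prph had a log2 difference of 1.40 ± 0.39 (edgeR adjusted p = 0.0668).

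**Figure D2:**
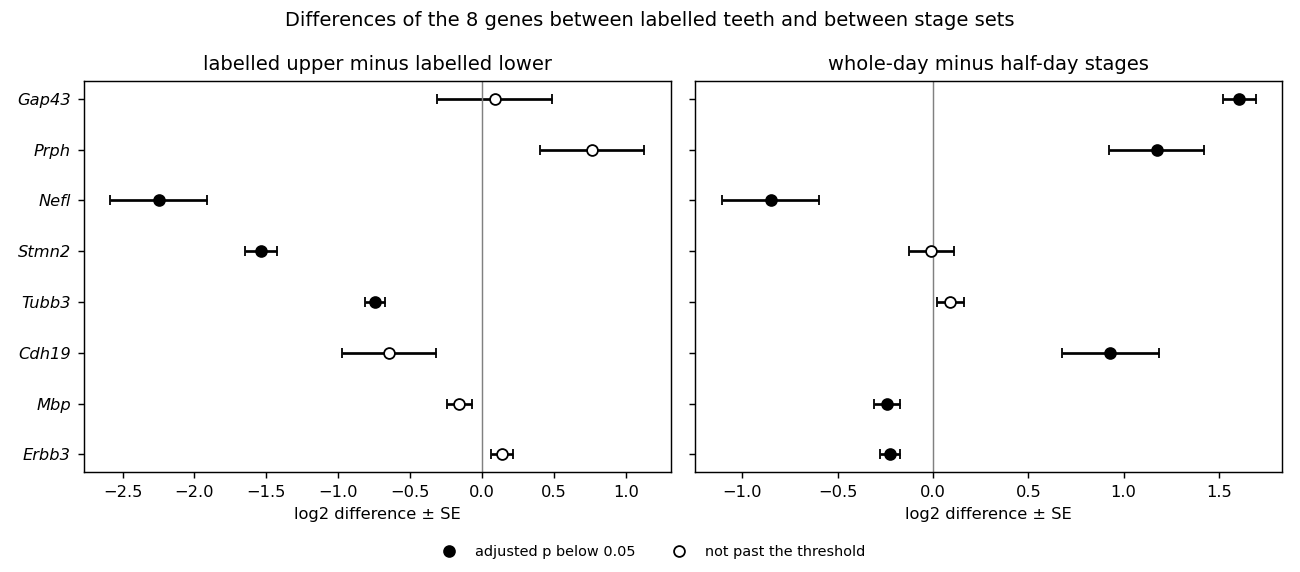
Log2 differences of the 8 genes (x axis, with bars of 1 SE) for labelled upper minus labelled lower on the left and whole-day minus half-day stages on the right; filled points passed an adjusted p of 0.05. Tubb3, Stmn2 and Nefl are called on the left at -0.75, -1.54 and -2.25, while on the right Gap43 stands at 1.61 and Tubb3 and Stmn2 lie near 0.

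Over labelled stage, Stmn2 was the 1 gene of the 8 that rose in each label, where 1 of 8 compares with 6.31% of all genes called in labelled upper (3.85% rising, 2.46% falling) and 4.24% in labelled lower (2.69% rising, 1.55% falling). Its slope was 0.41 ± 0.08 log2 units per day in labelled upper and 0.32 ± 0.06 in labelled lower (edgeR adjusted p = 0.0210 and 0.0296). The lanes split the stages in the middle of each label, and with the lane as a covariate the slopes were 0.20 and 0.19 (edgeR adjusted p = 0.677 and 0.534). The calls were also lost without any 1 of individuals 1, 2 and 8 in labelled upper, and without any 1 of individuals 1, 2, 3, 7 and 8 in labelled lower. Nefl had a slope of 0.49 ± 0.18 per day in labelled lower (edgeR adjusted p = 0.153), and 0.64 with the stage set as a covariate (edgeR adjusted p = 0.0232). With the lane as a covariate it was 0.37 (edgeR adjusted p = 0.696). In no fit with 1 individual left out was it called (edgeR adjusted p = 0.0709 to 0.362). The difference of slopes between labels was called for none of the 8 genes, against 1.28% of all genes (0.682% positive and 0.602% negative, as labelled upper minus labelled lower). For Stmn2 it was 0.10 ± 0.10 (edgeR adjusted p = 0.733).

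The defining markers of nerve and glia described here, Sox10, Foxd3, Ngfr, Nefm, Snap25, Nrg1 and Erbb2, had counts in every library. As several genes of axons and glia are also used by epithelium and mesenchyme, such counts alone do not show nerve or glia in the germ. Sox10, the transcription factor of neural crest and glia, ran from 2.99 to 6.69 CPM at whole-day stages and from 0.726 to 3.64 CPM at half-day stages, a log2 difference of 1.10 ± 0.22 (edgeR adjusted p = 0.00419). Foxd3, a factor of neural crest and Schwann cell precursors, was likewise higher at whole-day stages by 1.21 ± 0.26 (edgeR adjusted p = 0.00649). Its lowest library held 9 counts. Nefm, the medium neurofilament chain, was lower as Nefl was, by a log2 difference of -1.08 (edgeR adjusted p = 0.0258), while Nrg1, the axonal neuregulin, was higher by 0.72 (edgeR adjusted p = 0.0412). Both rest on few counts. Nefm had 117 in all whole-day and 244 in all half-day libraries, and Nrg1 had 211 and 112. Within a label, Nrg1 was called in neither (edgeR adjusted p = 0.220 in labelled upper and 0.250 in labelled lower). Sox10, Foxd3 and Nefm were called in labelled lower (edgeR adjusted p = 0.0232, 0.0279 and 0.0181). In labelled upper these genes were not called (edgeR adjusted p = 0.164, 0.186 and 0.352). How the calls of these markers hold without 1 individual is not given. Ngfr, the low-affinity neurotrophin receptor, Snap25, a synaptic vesicle fusion protein, and Erbb2 gave no call between sets over both labels, with log2 differences of -0.29, -0.28 and -0.05 (edgeR adjusted p = 0.0504, 0.294 and 0.337). Within labelled upper alone Ngfr and Snap25 were lower at whole-day stages, by log2 differences of -0.37 and -0.72 (edgeR adjusted p = 0.00958 and 0.0276), and neither was called in labelled lower. The differences between labels were not called (edgeR adjusted p = 0.846 for Ngfr and 0.179 for Snap25).

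In the list of 26 Schwann and glial genes, 25 were tested between stage sets, of which 8 were higher and 2 lower at whole-day stages, where 8.52% of all genes were higher and 7.01% lower. The median was 0.26, against -0.01 for all genes, and the genes of smallest p beside Sox10 and Foxd3 were Pllp (plasmolipin) at 1.75 and Cnp, an enzyme of myelinating glia, at 0.26. In the list of 24 neuron and axon genes 10 were higher and 3 lower, with a median of 0.35. Uchl1, a ubiquitin hydrolase of neurons, differed by 0.52, the kinesin Kif5a by 0.40 and the vesicle protein gene Syp by 0.54. Of 13 tested genes of sensory and autonomic neuron identity 5 were higher and none lower, among them the neurotrophin receptor Ntrk3 (0.44), the receptor Ret (0.87) and the tachykinin gene Tac1 (0.66). Of 10 tested neuregulin and ErbB genes 2 were higher and none lower, Nrg2 at 0.98 and Nrg1. Without individuals 1 and 2 the counts of higher and lower genes were 5 and 1 in the Schwann list, 4 and 2 in the neuron list, 3 and 0 in the sensory list and 1 and 0 in the neuregulin list, in a fit that called 1355 genes in all against 2529 with every individual. The summed Schwann list lay at 290.0 to 398.4 CPM at whole-day and 287.0 to 351.0 CPM at half-day stages, and the summed neuron list at 372.3 to 444.1 CPM at whole-day and 347.3 to 391.7 CPM at half-day stages, both overlapping. Such sums weigh genes of high level most. In the Schwann list Ngfr averaged 86.0 CPM at whole-day and 103.8 CPM at half-day stages, against 4.98 and 2.52 CPM for Sox10. The melanocyte list, 5 tested genes of another neural crest lineage, had no call between sets, but the set difference was more positive in labelled upper than in labelled lower for Dct, Mitf and Kit (by 2.52, 0.61 and 0.28, edgeR adjusted p = 0.0208, 0.0319 and 0.0346). Of 4 central glial genes tested, Slc1a3 and Olig1 were higher and Aqp4 lower, and of 6 neurosecretory genes 2 were higher, Scg2 at 1.57 and Chgb at 1.11. Olig1 is near the floor, with 83 counts in all libraries labelled upper and 4 in all those labelled lower. Dct also rests on few counts, 141 in all libraries labelled upper and 189 in all those labelled lower.

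Tissue markers moved with the stage sets as well. Of 8 epithelial genes 7 were lower at whole-day stages and none higher, against 7.01% and 8.52% of all genes, among them the keratin gene Krt5 (-0.50) and the adhesion gene Epcam (-0.36). Their summed level was 2572 to 3351 CPM at whole-day and 3413 to 4341 CPM at half-day stages, without overlap. Of 8 dental mesenchyme genes 6 were higher and none lower, among them Lhx6 (0.74) and Barx1 (0.50), transcription factors of the molar mesenchyme, with sums of 1109 to 1942 CPM at whole-day and 740.0 to 1621 CPM at half-day stages. The 12 muscle genes and the 8 endothelial genes gave no call. The part of epithelium and mesenchyme in the differences of Gap43, Prph, Cdh19, Mbp and Erbb3 was not tested.

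**Figure D3:**
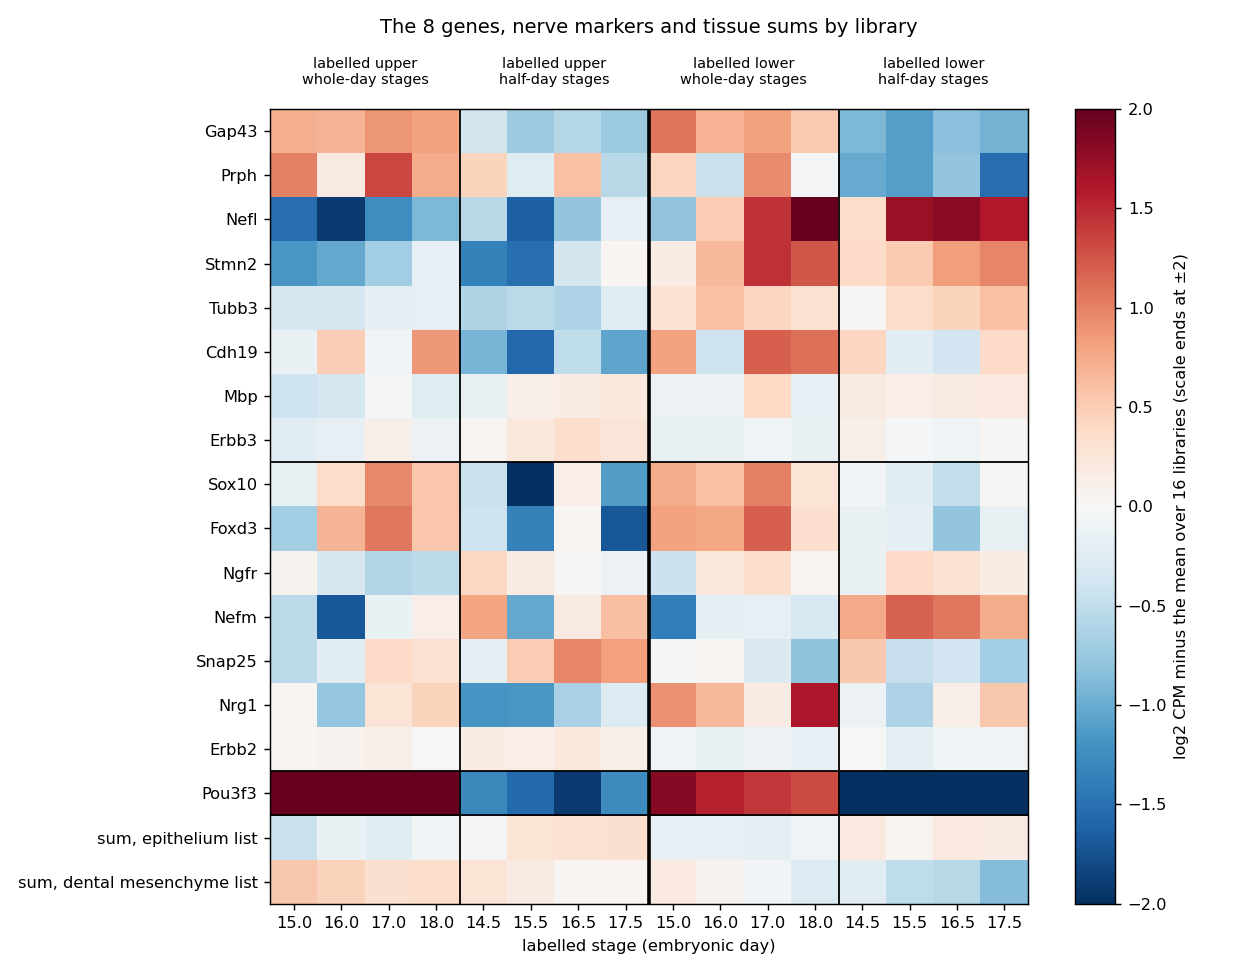
Log2 CPM of each gene or summed list minus its mean over the 16 libraries (colour, scale ends at ±2), with the libraries as columns by label, stage set and labelled embryonic day. Gap43 and Pou3f3 are high in all 8 whole-day columns, Nefl, Stmn2 and Tubb3 are high in most labelled lower columns, and the summed epithelium list is low at whole-day stages.

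Between the tooth labels, where 36.2% of all genes were called, 18.1% in each direction, the lists were called as follows. Of 25 Schwann and glial genes 3 were higher and 3 lower in labelled upper, and of 24 neuron and axon genes 6 were higher and 1 lower, so that 6 of 25 and 7 of 24 were called, both shares below that of all genes. The list medians were -0.13 and 0.22, against 0.01 for all genes. Dcx, a microtubule protein of migrating neurons, was higher by 2.06, the synaptic calcium sensor Syt1 by 1.31 and Uchl1 by 0.70, while the neuronal surface gene Thy1 was lower (-1.23). Of 13 sensory and autonomic genes 3 were higher and 3 lower: the neuropeptide gene Calca was higher by 1.61, while the sodium channel Scn9a, tyrosine hydroxylase Th and Ntrk3 were lower (-2.14, -1.32 and -1.37). Of 10 neuregulin and ErbB genes 3 were higher and 3 lower, including Erbb2, the partner of Erbb3, at 0.21 and Nrg1 at -0.82. Of 8 dental mesenchyme genes 5 were higher and none lower, whereas the epithelium and muscle lists had 1 in each direction, the endothelium list 1 higher and 3 lower, and the melanocyte list 2 lower. The neurosecretory list had 1 higher, and the central glial list 1 in each direction.

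Over stage in labelled upper, 4 of 11 tested sensory and autonomic genes rose, against 3.85% of all genes: Ntrk3 (0.75 per day), Th (0.56), Tac1 (0.55) and Scn9a (0.51). With the lane as a covariate, a fit that called 2 genes of all tested in labelled upper and 19 in labelled lower, none of the listed genes was called over stage in either label. The slopes were then 0.70 for Ntrk3, 0.23 for Th, 0.66 for Tac1 and 0.35 for Scn9a (edgeR adjusted p = 0.325, 0.656, 0.386 and 0.680). The slope of Ntrk3, the receptor of neurotrophin-3, differed between labels by 0.71 ± 0.13 (edgeR adjusted p = 0.0260). None of these 11 genes was called over stage in labelled lower. In labelled upper 8 of 12 muscle genes rose too, again against 3.85% of all genes and 0 of 12 with the lane as a covariate, and their part in the sensory slopes was not tested. The Schwann list had 1 gene that rose (Ednrb) and 1 that fell (Sox2) in labelled upper and none in labelled lower. Of the neuron list Mtap2 rose in labelled upper (0.16 per day) and Tubb2b fell in labelled lower (-0.13 per day). The melanocyte gene Kit rose in both labels and Mitf in labelled lower, and the mesenchyme gene Prrx1 fell in labelled upper. The neuregulin, central glial, epithelium, endothelium and neurosecretory lists had no call over stage in either label.

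The 8 genes did not move as 1 group. Across the 16 libraries, which share tooth label, lane and stage set, Pearson's r of log2 CPM was 0.89 between Stmn2 and Nefl, 0.87 between Stmn2 and Tubb3 and 0.79 between Tubb3 and Nefl. It was 0.75 between Gap43 and Prph, 0.57 between Mbp and Erbb3 and -0.59 between Gap43 and Erbb3. Cdh19 had 0.54 with Gap43 and 0.56 with Stmn2. These values describe the libraries and carry no test.

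Among 13596 well-counted genes, the gene most like Gap43 over the 16 libraries was Pou3f3 (r = 0.977), followed by 2900092D14Rik, Plekha6, 2610017I09Rik and Hspa12a. Stmn2 was most like Pitpnm1 (0.983), Sntb1 and Ccdc141, and Tubb3 most like Slit2 (0.953), Sorcs3 and Ptn. For Nefl the first were Frmd5 (0.959), Plac8 and Galc, and for Prph Frk (0.929), Parp8 and Gnao1. Cdh19 was most like Chpf (0.924) and Erbb3 most like Icam1 (0.915). Mbp was most like Abcc1 (0.878), followed by Prkch and the tight junction gene Ocln. For none of the 8 genes was the most similar gene a listed Schwann or neuron gene. The genes compared had a mean count of at least 50 and left out the 8 genes themselves. Listed genes of lower counts, such as Foxd3, Pllp and Nefm, could therefore not appear.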

How the data were processed

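For each of the 16 libraries the authors deposited raw whole-number counts by gene symbol, without normalization. The submitters' processing notes name the tools Bowtie2 (2.0.2), TopHat2 (2.0.6) and HTSeq (0.5.3p9) and mouse build mm10. Per the labels' protocols the libraries were poly(A) RNA read as pairs of 100 bp. No source used here states the annotation or the strand setting. The 5 summary lines of each table were kept out of totals and tests (11.8% to 14.1% of a table's sum on no annotated feature). No 2 libraries of the 120 pairs were identical.

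CPM was computed from the gene total of each library. Genes entered a fit at 0.269 CPM or more (10 counts at median depth) in at least 2 of its libraries. Tests used edgeR 4.0.16 in R 4.3.3 (TMM, quasi-likelihood F test, Benjamini-Hochberg adjustment over all genes tested, threshold 0.05). The model held tooth label and a natural spline of labelled stage with 3 degrees of freedom, and for the stage sets also the set and a label-by-stage term. Slopes, and set differences inside a label, were fitted on its 8 libraries. The step was tested on simulated counts. Changes were put only into genes of higher mean counts than Prph and Cdh19, so that test does not cover genes at their level. DESeq2 1.42.0, limma 3.58.1, lane, individual and stage set terms, filters and left-out individuals were the alternatives. Per the labels the individual numbers pair the libraries. About a linear trend of stage within each label, same-numbered libraries correlated with r of 0.105 to 0.404 over the 500 most variable genes. For 1 of 8 individuals the best match was its own number. Same-numbered libraries also share the stage set, whose difference that trend left in, so these r cannot show a shared embryo.

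The genes and lists were chosen with earlier results of these data known, so list counts are descriptions. All 8 genes were named in every comparison, with at most 4 called genes per list by smallest p, the defining markers, and for each gene the most similar ones by Pearson's r among genes with a mean count of at least 50. Older symbols in the files were used for Ncmap (A330049M08Rik), Map2 (Mtap2) and Piezo2 (Fam38b). Gene spans and promoters are from RefSeq GRCm38.p6, and 2 of the 8 genes matched a promoter entry. Some genes that this rule names are not reported here.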

Additional observations from a re-analysis of the deposited data

Results flagged for a closer look

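The libraries of each tooth label, and of each label and stage set, were examined for every gene, 48 groups in all. Of these 2 held a library set apart by a gap that was wide relative to the range of its group, where chance marks about 1 in 20. Mbp was 38.3 CPM at ED17.0 in the whole-day libraries labelled lower, with the nearest of the other 3 at 26.8 CPM, a gap of 0.920 of the group's range. Erbb3 was 39.7 CPM in the same library, with the nearest at 37.6 CPM and the lowest at 37.4 CPM, a gap of 0.931 of the range. That range is narrow, and the Erbb3 gap is small in CPM.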

How the results depend on the processing

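The calls of Tubb3, Stmn2 and Nefl between labels, and of Gap43 between stage sets, kept direction and threshold under all alternatives run. The number of genes called moved by over 1.5 times as follows. With DESeq2 it was 2061 for the slope in labelled upper, 1819 for the slope in labelled lower, 595 for the slope difference and 345 for the set difference between labels. With the stage set as a covariate the same slope counts were 2176, 1813 and 673. With the lane as a covariate the slopes called 2 genes in labelled upper and 19 in labelled lower. With the replicate block (individual) the slope difference called 475 genes and the set difference between labels 27; the block changed no call of the 8 genes other than those of Prph, Mbp and Nefl given above. The label difference called 3162 genes in whole-day stages alone and 3302 in half-day stages alone, each with 8 libraries, and the set difference 1355 without individuals 1 and 2. Leaving out 1 individual at a time gave 4846 to 5556 genes between labels, 1049 to 2153 between stage sets, 536 to 1462 in labelled upper, 601 to 912 in labelled lower, 11 to 164 for the set difference between labels, 197 to 1375 and 33 to 762 for the slopes in labelled upper and lower, and 14 to 136 for the slope difference. Log2 values that changed sign were never called. They were Tubb3 between sets in labelled lower with DESeq2 (-0.000833); Stmn2 between sets with the random block (0.0487), with the lane in place of label and stage (0.116) and with lane and linear stage (0.0236); and Gap43 between labels at whole-day stages alone (-0.0101). With the stage set as a covariate slopes were -0.0593 (Prph) and -0.0210 (Gap43) in labelled upper, and -0.0321 (Prph) and -0.0724 (Gap43) in labelled lower. With the lane as a covariate they were -0.32 (Prph), -0.33 (Nefl), -0.0888 (Mbp) and -0.14 (Erbb3) in labelled upper, and -0.11 (Prph), -0.18 (Mbp) and -0.0307 (Cdh19) in labelled lower. Without 1 individual at a time, slopes in labelled upper ran from -0.0698 to 0.14 for Prph, -0.00504 to 0.27 for Gap43 and -0.00350 to 0.10 for Erbb3. In labelled lower they ran from -0.0605 to 0.31 for Prph, -0.13 to 0.33 for Gap43, -0.0169 to 0.0824 for Mbp and -0.0451 to 0.0191 for Erbb3. Slope differences ran from -0.18 to 0.0309 for Prph, -0.0220 to 0.19 for Cdh19, -0.0738 to 0.16 for Gap43 and -0.0539 to 0.0600 for Tubb3. Set differences ran from -0.0441 to 0.00867 for Stmn2, and in labelled lower from -0.0867 to 0.0775 for Tubb3 and -0.0938 to 0.22 for Stmn2. The Nefl set difference between labels ran from -0.28 to 0.80. The cause of these changes was not tested. Prph, Cdh19 and Nefl rest on few counts per library, which limits what their differences can show.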
